A study of Mus musculus with 6 samples.

Results

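The genes of oxidative phosphorylation described here were the mouse genes whose symbols begin with Nduf followed by a, b, c, s or v, with Cox4 to Cox8, with Uqcr, with Atp5 or with mt-, together with Sdha, Sdhb, Sdhc, Sdhd and Cyc1. This rule found 110 genes among the 32227 in the count tables. Of these, 13 were protein-coding genes of the mitochondrial genome and 97 were nuclear. The nuclear genes comprised 78 subunits (37 of complex I, 4 of complex II, 9 of complex III, 11 of complex IV and 17 of complex V), 8 assembly factors of complex I, 10 paralogs with restricted expression or other roles, and 1 pseudogene, Cox5b-ps.

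Oxidative phosphorylation makes ATP in the inner mitochondrial membrane: complexes I and II pass electrons from NADH and succinate to ubiquinone, complex III passes them on to cytochrome c, complex IV reduces oxygen, and complex V uses the resulting proton gradient to make ATP. Complexes I, III, IV and V are built from subunits of both genomes, whereas complex II is encoded entirely in the nucleus, so the mRNAs of 1 complex come from separate transcription systems. T cells rely on the pathway at rest and in memory, and proliferating thymocytes and activated effector cells add mitochondrial mass while they also raise glycolysis.

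The libraries came from CD8+ T cells of Pdcd1fl/fl mice (labelled fl below) and of mice labelled Pdcd1 cKO, and were made with PIPseq, a droplet method that counts the 3′ ends of transcripts by unique molecular identifiers (UMIs). Both groups carry the floxed Pdcd1 allele, which encodes the inhibitory receptor PD-1, and the cKO mice also carry the E8I CD8-Cre transgene, driven by Cd8a regulatory sequence, so that deletion is limited to cells that have turned this element on. The mice were on the C57BL/6 background and over 8 weeks old. The thymus and spleen libraries each came from 1 mouse and the cells were enriched with a CD8a+ T cell isolation kit. The tumor libraries each pooled 3 mice with B16-OVA melanoma at day 12 and were enriched with microbeads for CD8+ tumor-infiltrating cells. Each of the 6 combinations of tissue and label had 1 library, so no spread between mice of 1 group could be measured, and no test of a difference was run. The intervals given are 95% intervals that cover counting error only.

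The 6 libraries differed widely in depth. After filtering, 1067 cells with 6389966 UMIs were used from the thymus library labelled fl and 2635 cells with 19143524 UMIs from the one labelled cKO. The spleen gave 1478 cells with 2220981 UMIs (fl) and 4912 cells with 8876298 UMIs (cKO), and the tumor 287 cells with 3834198 UMIs (fl) and 469 cells with 5261863 UMIs (cKO). The median depth per cell was lowest in the spleen (1320.5 UMIs in the library labelled fl and 1614.5 in cKO), intermediate in the thymus (4361 and 5417) and highest in the tumor (11027 and 9107). The spleen libraries shared 2 cell barcodes, and no other pair of libraries shared any.

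The labels were checked first against the RNA of Pdcd1 itself. Pdcd1 had 1.88 CPM (counts scaled to a fixed library total, here of all UMIs, as for the genes checked and marker lists) in the thymus library labelled fl and 6.84 in the one labelled cKO, 0.45 and 11.7 in the spleen libraries, and 183 and 152 in the tumor libraries. In thymus and spleen the library labelled cKO therefore had more Pdcd1 RNA than the library labelled fl, which goes against the labels. The tumor library labelled cKO had less than the one labelled fl. The values of the libraries labelled fl rest on 12 UMIs in thymus and 1 UMI in spleen (0.01 to 2.51 CPM). Pdcd1 was also among the leading genes of the effector-like thymus cluster 7, which held 1 cell labelled fl and 199 labelled cKO, so the thymus difference moves with a cell state nearly absent from the library labelled fl. Whether the counted 3′ end lies within the deleted stretch is not given in the sources used here, and the genotype of each library was not tested here, so libraries are named by their labels throughout. The 9 effector CD8 markers (Nkg7, Gzmb, Gzmk, Gzma, Prf1, Ccl5, Ccl3, Ccl4 and Lag3) summed to 1103 and 1454 CPM in the thymus libraries (fl and cKO), 5379 and 10652 in the spleen libraries and 3186 and 6790 in the tumor libraries. The sums were higher in the library labelled cKO in each tissue. In thymus this came from Ccl5 (271 and 805), and the other 8 genes together were lower in the library labelled cKO, with Lag3 at 0 in the thymus library labelled fl and no other gene of the list at 0. The most abundant were Gzma (561, fl) and Ccl5 (cKO) in thymus, Ccl5 (3919 and 8017) in spleen and Nkg7 (1561 and 2637) in tumor. A UMI of Cd8a or Cd8b1, which encode the CD8 chains, was found in 55.2% and 66.5% of the thymus cells used, in 58.4% and 78.9% of the spleen cells and in 95.5% and 97.4% of the tumor cells (fl and cKO). The left-out cells of the tumor, described at the end, had such a UMI in 41.4% and 59.8% at higher median depth, so a single CD8 UMI did not separate cell types in the tumor. Cd4 was at most 4.69 CPM in any library. The immature thymocyte gene Dntt was found at 478 and 377 CPM in the thymus libraries.

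Levels of nuclear members are CPM of the UMIs of nuclear genes, which also scale the ratios of other nuclear genes of the pathway, and those of mitochondrial mRNAs are CPM of all UMIs. UMIs were not divided by transcript length because each UMI stands for 1 captured 3′ end. The summed nuclear subunits stood at 42834 CPM (95% interval 42670 to 42998) in the thymus library labelled fl, 26024 (25950 to 26098) in thymus cKO, 23278 (23074 to 23483) in spleen fl, 21253 (21155 to 21351) in spleen cKO, 37516 (37320 to 37712) in tumor fl and 41625 (41450 to 41802) in tumor cKO. The thymus library labelled fl and both tumor libraries were thus high, and both spleen libraries and the thymus library labelled cKO were low. The mitochondrial mRNAs took 3.92% of all UMIs (Clopper-Pearson interval 3.91 to 3.94) in thymus fl, 4.92% (4.91 to 4.93) in thymus cKO, 3.78% (3.76 to 3.81) in spleen fl, 4.37% (4.36 to 4.39) in spleen cKO, 1.96% (1.95 to 1.97) in tumor fl and 1.75% (1.74 to 1.76) in tumor cKO. The order of the libraries was therefore not the same for the products of the separate genomes: the tumor libraries were high for nuclear subunits and lowest for mitochondrial mRNAs. Expressed as a ratio within each library, there were 95.4 mitochondrial mRNAs per 100 nuclear subunit UMIs in thymus fl and 199 in thymus cKO, 169 and 215 in the spleen libraries, and 53.3 and 42.9 in the tumor libraries.

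**Figure D1:**
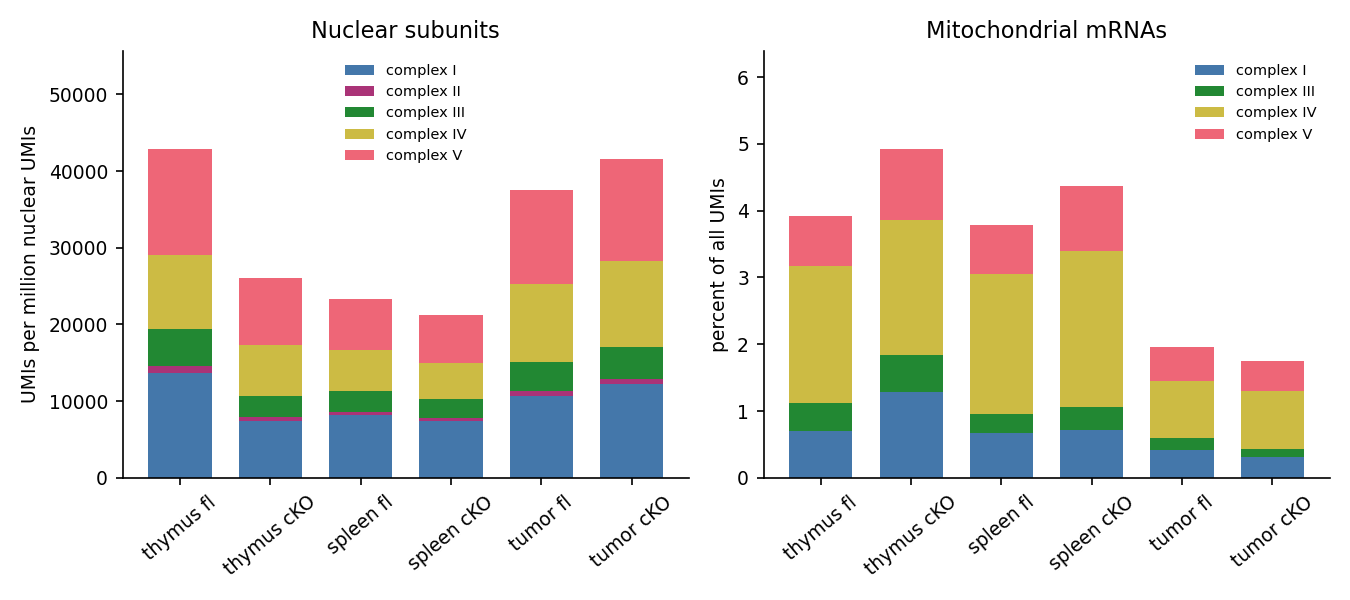
Bars show the nuclear subunits (CPM of nuclear UMIs) and the mitochondrial mRNAs (percent of all UMIs) of each respiratory complex in the 6 libraries, stacked by complex. The nuclear sum runs from 21253 in the spleen library labelled cKO to 42834 in the thymus library labelled fl, and the mitochondrial bars are lowest in the tumor libraries.

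The thymus libraries were compared by label over all cells used, which included clusters with little CD8 RNA. Cd8b1 stood at 96.5, 40.7, 81.2 and 58.0 CPM in clusters 1, 2, 3 and 8, against 689 in the naive CD8-like cluster 0. Dntt stood at 524, 846, 508 and 922 there, against 62.8 in cluster 0. Trdc, a gamma delta T cell gene, stood at 193, 282, 196 and 276, against 31.8. Whether the Cre was active in such cells was not tested. Nuclear subunits were lower in the library labelled cKO, with a log2 ratio of −0.72 (−0.73 to −0.71), and the difference had the same sign in each of the 5 complexes. Complex I stood at 13631 CPM in the library labelled fl and 7427 in cKO (log2 −0.88), complex II at 939 and 520 (−0.85), and complex III at 4852 and 2678 (−0.86). Complex IV stood at 9674 and 6665 (−0.54) and complex V at 13738 and 8733 (−0.65). Complexes I, II and III, the electron-transfer chain up to cytochrome c, thus differed more than complexes IV and V. Of the 97 nuclear members, 90 had at least 100 UMIs over the pair of libraries, and 57 of these were over 1.5-fold lower in the library labelled cKO (63.3%), against 15.3% of all 10367 nuclear genes tested at that depth. None of the 90 was over 1.5-fold higher, against 11% of all genes. The median log2 ratio of the members was −0.73 and that of all genes −0.06.

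Among complex I subunits the range in the thymus ran from Ndufc1, an accessory subunit of the membrane arm, to Ndufv3, an accessory subunit of the NADH-oxidising module. Ndufc1 had 567 CPM in the library labelled fl and 212 in cKO (log2 −1.42, −1.49 to −1.35), and Ndufv3 had 241 and 189 (−0.35, −0.43 to −0.26). All 37 complex I subunits had a ratio below 0, and 30 were past 1.5-fold. In complex II, Sdhb, which holds the iron-sulfur clusters, had 523 and 253 (−1.05), whereas the flavoprotein subunit Sdha had 136 and 98.0 (−0.48). The membrane anchors were between them, Sdhc at 132 and 90.1 (−0.56) and Sdhd at 147 and 78.9 (−0.90), so that the 4 genes shared a direction and differed in size. In complex III, Uqcr11, a small accessory subunit, had the lowest ratio of all nuclear members, at 862 and 317 CPM (−1.44, −1.50 to −1.39). The hinge protein gene Uqcrh was nearly level at 716 and 654 (−0.13). In complex IV, Cox6a1 had 1263 and 647 (−0.97) and Cox7b 567 and 590 (0.06, 0.00 to 0.11). Cox7b was the subunit with a ratio above 0 among the 78 in the thymus. In complex V, Atp5j, which encodes coupling factor 6 of the stalk, had 1028 and 451 (−1.19), and Atp5d, the delta subunit of the F1 part, had 280 and 260 (−0.11).

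The mitochondrial mRNAs of the thymus went the other way. Their share was higher in the library labelled cKO (log2 0.33, 0.32 to 0.33), and the size depended on the complex. The 7 complex I mRNAs together had 7033 CPM in the library labelled fl and 12934 in cKO (0.88), mt-Cytb of complex III 4221 and 5409 (0.36), and the complex V mRNAs 7508 and 10629 (0.50). The 3 complex IV mRNAs were level at 20478 and 20213 (−0.02), with a sign that turned when ribosomal protein and Malat1 UMIs were left out of the total (0.14) or under median-of-ratios scaling (0.05). Complex I thus had the highest mitochondrial ratio and, by summed CPM, the lowest nuclear ratio in the same pair of libraries. The intervals of the nuclear ratios of complexes II and III overlapped that of complex I. The median over subunits was lower for complex III (−0.91) than for complex I (−0.84). The extreme was mt-Nd3, a core membrane subunit of complex I, at 603 and 2417 CPM (log2 2.00, 1.95 to 2.05). The next were the small transcripts mt-Nd4l (29.1 and 81.3, log2 1.48), mt-Nd6 (7.67 and 19.1, 1.32) and mt-Atp8 (145 and 334, 1.21). mt-Nd5 had 185 and 399 (1.11), mt-Nd2 1436 and 2558 (0.83), mt-Nd1 2622 and 4315 (0.72) and mt-Nd4 2149 and 3145 (0.55). At the low end were mt-Co2 at 5495 and 6017 (0.13), mt-Co1 at 4386 and 4226 (−0.05) and mt-Co3 at 10597 and 9969 (−0.09). The reading frames of mt-Nd4l and mt-Nd4, and of mt-Atp8 and mt-Atp6, overlap on shared transcripts, so how UMIs were divided within each of these pairs is uncertain.

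The thymus libraries also held different mixtures of cells. The 8 cycling markers (Mki67, Top2a, Birc5, Stmn1, Cdk1, Ccnb1, Pclaf and Ube2c) summed to 3447 CPM in the library labelled fl and 1621 in the one labelled cKO, with Stmn1 the most abundant in both (1657 and 643) and none at 0. Cluster 1, a cycling-like cluster with 49830 nuclear subunit CPM, held 511 cells of the library labelled fl and 6 of cKO. Cluster 0, naive CD8-like with 18785, held 20 and 808. In a comparison chosen after the data were seen, cells were restricted to those with a Cd8a or Cd8b1 UMI and no Dntt UMI. This left 240 and 956 cells, in which nuclear subunits stood at 29807 and 18751 CPM. In these cells 53 of 78 subunits tested were over 1.5-fold lower in the library labelled cKO, against 25.5% of 6058 genes, and 0 were higher, against 4.99%. The median log2 ratio of the subunits was −0.71, beside −0.30 over all genes, so all genes were shifted the same way here. In cells with a Dntt UMI and no CD8 UMI (387 and 658 cells), nuclear subunits stood at 47068 and 29237, and cells with both or neither kind of UMI are in neither gate. There, 45 of 78 were over 1.5-fold lower, against 13.1% of 7233 genes, and 0 were higher, against 16.8%. The medians were −0.70 for the subunits and 0.02 for all genes. The cycling markers differed within these gates too, at 1608 and 475 CPM in the first and 3967 and 1991 in the second. The mitochondrial share, in contrast, had no common direction: it was 4.35% and 3.99% among cells with CD8 UMIs and no Dntt (log2 −0.12), the opposite sign from the whole library, and 3.84% and 5.66% among cells with Dntt and no CD8 (0.56). A gate on the presence of UMIs depends on depth, and in the whole libraries 248 and 402 cells had exactly 1 CD8 UMI and 189 and 543 exactly 1 Dntt UMI.

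Of the 12 thymus clusters, 6 had at least 20 cells from each library, and nuclear subunits were lower in the library labelled cKO in each of these. The memory-like cluster 6, led by Gzmm, Ly6c2 and Ccl5, stood at 28465 in the 179 cells labelled fl and 18501 in the 97 labelled cKO (log2 −0.62, −0.65 to −0.59). In it, 47 of 71 subunits tested were over 1.5-fold lower, against 31.8% of 1627 genes, and 0 were higher, against 7.01%. The median of the subunits was −0.75, beside −0.36 over all genes, so part of the cluster 6 difference was shared by all genes. Smaller differences were seen in the cycling-like cluster 8 (39039 and 29809, log2 −0.39) and the naive CD8-like clusters 10 (24421 and 18593.5, −0.39) and 0 (21003 and 18730, −0.17). In clusters 4 and 5 the ratios were −0.21 and −0.22. Within clusters, the difference was therefore of the same sign as between whole libraries, and smaller in each of the 6.

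The mitochondrial share of the thymus was highest in 2 clusters of low ribosomal content. Cluster 4, unnamed, had 14.2% ribosomal protein UMIs, 8.95% mitochondrial UMIs and 15717 nuclear subunit CPM. Cluster 5, cycling-like, had 14.0%, 12.0% and 24113. All other thymus clusters had between 3.44% and 4.84% mitochondrial UMIs, so these clusters stood apart. They held 122 cells of the library labelled fl (11.4%) and 536 of the one labelled cKO (20.3%). Without them, a choice made after the data were seen, the mitochondrial log2 ratio was 0.14 in place of 0.33. Within clusters, the mitochondrial ratio of cKO over fl was 0.37 in cluster 4, 0.69 in cluster 5 and 0.21 in cluster 0, and −0.07 in cluster 6, −0.04 in cluster 8 and −0.04 in cluster 10, so it went both ways. Malat1, a nuclear-retained RNA, stood at 3960 CPM in cluster 4 and 2015 in cluster 5, against 337 to 2774 in the other thymus clusters. RNA quality of these cells was not tested.

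The spleen libraries differed less in nuclear subunits than those of the thymus. The log2 ratio of the library labelled cKO over fl was −0.13 (−0.15 to −0.12), beside a median of 0.19 over all 7814 genes tested. Complex I stood at 8247 CPM in the library labelled fl and 7437 in cKO (−0.15), complex III at 2674 and 2395 (−0.16), complex IV at 5372 and 4791 (−0.17) and complex V at 6624 and 6236 (−0.09). Complex II was at 362 and 394 (0.12), which turned to −0.06 under median-of-ratios scaling and to −0.01 with ribosomal protein and Malat1 UMIs left out. None of the complexes came near the 1.5-fold limit. Of 85 nuclear members tested, 7 were over 1.5-fold higher, against 18.1% of all genes, and 1 was lower, against 3.17%. Under median-of-ratios scaling the counts were 2 higher and 4 lower, and those of all genes went from 1414 higher and 248 lower to 818 and 551, so neither direction was stable to the scaling.

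The members furthest apart in the spleen were few. Ndufaf7, a methyltransferase needed to assemble complex I, had 7 UMIs in the library labelled fl and 94 in cKO (3.28 and 11.1 CPM, log2 1.76, 0.66 to 3.11). At the other end, Atp5md, a small membrane subunit of complex V, had 620 and 410 CPM (−0.60, −0.69 to −0.50). Atp5d had 134 and 207 (0.63). In complex II, Sdhc had 37.0 and 66.0 (0.84, 0.49 to 1.19), Sdha 73.0 and 96.7 (0.41), Sdhd 37.0 and 45.7 (0.31) and Sdhb 215 and 186 (−0.21). The complex thus held members on either side of 0. In complex I the range ran from Ndufb2 (181 and 131, −0.47) to Ndufv1, the subunit that binds NADH (33.2 and 56.2, 0.76). Complex III ran from Uqcr10 (496 and 372, −0.42) to the core subunit Uqcrc1 (84.2 and 141, 0.74), and complex IV from Ndufa4 (610 and 458, −0.41) to Cox5a (211 and 267, 0.34).

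The spleen mitochondrial share was higher in the library labelled cKO, at a log2 ratio of 0.21 (0.20 to 0.22) that shrank to 0.03 under median-of-ratios scaling. Cluster 4, of low ribosomal content and with 6.76% mitochondrial UMIs, held 3.45% of the cells labelled fl and 11.7% of those labelled cKO. Malat1 stood at 6048 CPM in this cluster, the highest level of the spleen clusters, and at 1449 and 3194 in the whole libraries. Without cluster 4, a choice made after the data were seen, the mitochondrial ratio was 0.14 and the nuclear ratio −0.09. The complex V mRNAs stood at 7300 and 9806 CPM (0.43) and mt-Cytb at 2842 and 3523 (0.31). The complex I mRNAs (6728 and 7128, 0.08) and the complex IV mRNAs (20934 and 23262, 0.15) were close to level, and their sign turned under median-of-ratios scaling (−0.09 and −0.03). mt-Nd3, so much higher in the thymus library labelled cKO, was lower in the spleen library of that label, at 606 and 437 (−0.47). The largest spleen cluster of the library labelled fl, cluster 2, held 1160 of its cells and 2 of cKO, so that cell state and library cannot be told apart there. Of the 14 spleen clusters, 6 had at least 20 cells of each library, with nuclear ratios from −0.16 in cluster 10 to 0.09 in cluster 12. Genes of the stress response differed between these libraries: Hspa1a, an inducible heat shock protein, stood at 20.7 and 601 CPM, Hspa1b at 31.5 and 593, and the immediate early gene Jun at 253 and 717. Their part in the spleen ratios was not tested.

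In the tumor, nuclear subunits were slightly higher in the library labelled cKO (log2 0.15, 0.14 to 0.16). This direction depended on which cells were counted: with the melanoma-like and macrophage-like clusters included the ratio was −0.11, and over all filtered cells with a CD8 UMI, which also include cells of those clusters, it was −0.06. Complex I stood at 10691 CPM in the library labelled fl and 12186 in cKO (0.19), complex II at 591 and 677 (0.20) and complex III at 3799 and 4157 (0.13). Complex IV stood at 10203 and 11252 (0.14) and complex V at 12231 and 13353 (0.13). Each complex thus had a ratio a little above 0. Of 86 nuclear members tested, 0 were over 1.5-fold higher, against 10.7% of all 4987 genes, and 0 were lower, against 5.33%. The median of the members was 0.13 and of all genes 0.08, so the members as a group were close to the middle of all genes.

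The highest tumor ratio belonged to Ndufb11, an X-linked accessory subunit of complex I, at 346 and 454 CPM (0.39, 0.29 to 0.49), and the lowest in that complex to Ndufs3 (114 and 107, −0.09). Ndufaf4, an assembly factor, was lowest of all nuclear members at 25.0 and 19.0 (−0.40, −0.82 to 0.02), a difference not detectable at this depth. In complex II, Sdhb had 301 and 365 (0.28), Sdhc 98.4 and 119 (0.27), Sdhd 147 and 151 (0.04) and Sdha 45.2 and 42.0 (−0.11). The intervals of Sdhd and Sdha included 0. In complex III, Uqcrb had 240 and 225 (−0.09) and Uqcr11, the lowest member in the thymus, 425 and 540 (0.35). Complex IV ran from Cox7c (1438 and 1399, −0.04) to Cox5b (458 and 559, 0.29), and complex V from Atp5a1, the alpha subunit of the F1 part (440 and 392, −0.17), to Atp5o (471 and 597, 0.34).

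The tumor mitochondrial share was lower in the library labelled cKO (log2 −0.16, −0.17 to −0.15). Complex I mRNAs differed most, at 4212 and 3069 CPM (−0.46), followed by mt-Cytb at 1759 and 1330 (−0.40) and complex V at 5032 and 4538 (−0.15). Complex IV mRNAs were level at 8588 and 8597 (0.00). The 6 mitochondrial complex I genes with enough UMIs had ratios from −0.71 (mt-Nd4l, 33.6 and 20.5) to −0.40 (mt-Nd1, 1399 and 1062), and mt-Nd6, with 7 and 10 UMIs, was too scarce to compare. So the mitochondrial complex I mRNAs, highest in the library labelled cKO in the thymus, were the ones lowest in it in the tumor. A single barcode removed from the tumor library labelled fl by the mitochondrial limit (20912 UMIs, 22.8% mitochondrial, no CD8 UMI) would move the mitochondrial ratio from −0.16 to −0.24.

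**Figure D2:**
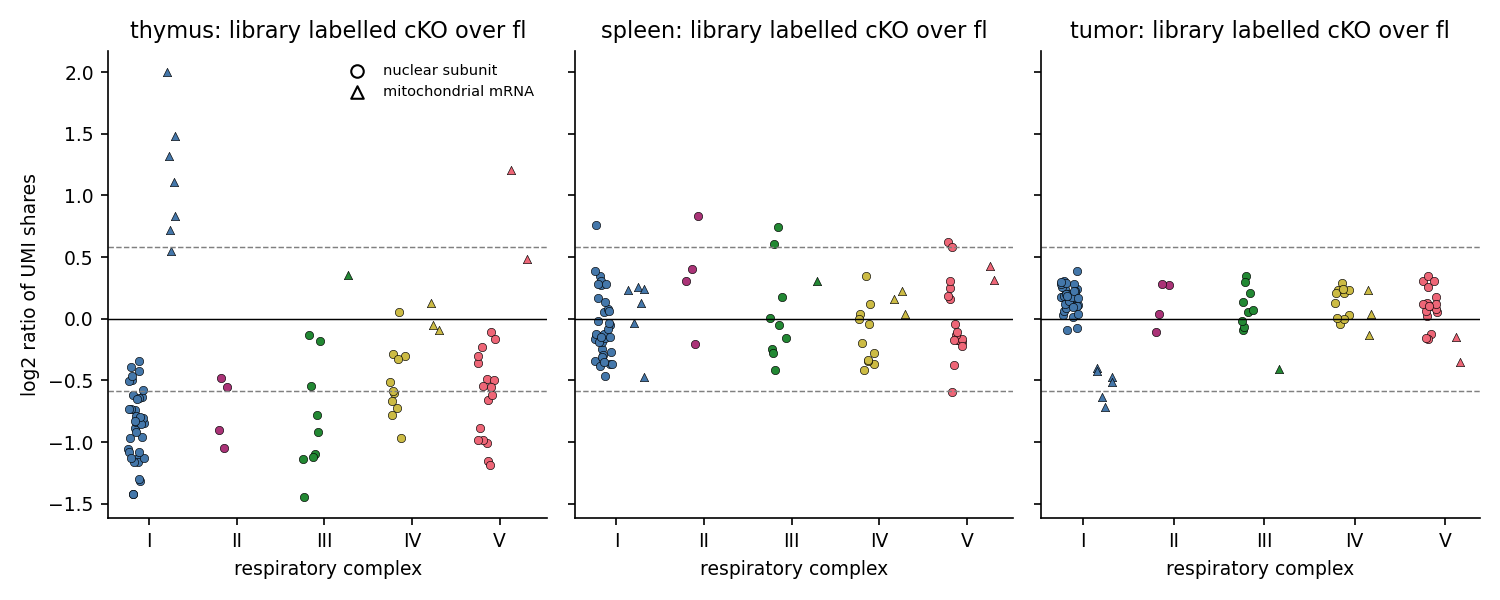
Each point is 1 gene's log2 ratio of the library labelled cKO over the one labelled fl, by respiratory complex, for nuclear subunits (circles) and mitochondrial mRNAs (triangles), with dashed lines at 1.5-fold in either direction. In the thymus the nuclear subunits run from −1.44 to 0.06 with mt-Nd3 at 2.00, whereas in the tumor no nuclear subunit passes the lines.

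The tumor clusters gave the same sign as the tumor libraries for nuclear subunits. Cluster 1, unnamed and led by Gzmc and Malt1 among others, held 155 cells labelled fl and 67 labelled cKO, at 39841 and 42905 CPM (0.11, 0.09 to 0.12). In this cluster 0 of 77 subunits tested were over 1.5-fold higher, against 8.63% of 2734 genes, and 0 were lower, against 5.38%. The medians were 0.11 for the subunits and 0.04 for all genes. The naive CD8-like cluster 3, led by Slamf6, Ccr7 and Dapl1, held 97 and 34 cells at 30238 and 38087 (0.33, 0.30 to 0.36). There 6 of 71 were higher, against 12.2% of 910 genes, and 0 were lower, against 2.53%. In cluster 3 the median of the subunits was 0.31, beside 0.17 over all genes. The effector-like clusters 0 (11 and 246 cells) and 4 (17 and 112) had too few cells labelled fl to compare, and stood at 41433 and 41226 with both libraries pooled.

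Between tissues, the spleen libraries were lower than the thymus libraries for nuclear subunits under either label, with a larger difference for fl (log2 −0.88, −0.89 to −0.87) than for cKO (−0.29, −0.30 to −0.28). These comparisons share libraries with those of the labels and are not independent of them. Cell mixture moved with them: the 8 cycling markers summed to 3447 and 1621 CPM in the thymus libraries (fl and cKO) and 118 and 127 in the spleen libraries, with Stmn1 the most abundant in each and none at 0, and Dntt stood at 478 and 377 in thymus and 1.80 and 2.82 in spleen. The medians over all genes were −0.43 and −0.12. For fl, 74 of 89 nuclear members tested were over 1.5-fold lower in spleen, against 43.6% of 7509 genes, and 1 was higher, against 14.7%. For cKO, 23 of 90 were lower, against 27.2% of 10650 genes, and 4 were higher, against 19.1%. The cKO count was therefore at the background. Median-of-ratios scaling moved the split for all genes from 1101 higher and 3275 lower to 2007 and 2111 for fl and from 2035 and 2898 to 2434 and 2393 for cKO, and that of the members to 2 and 49 and to 4 and 14. Under both labels 22 of 89 members were lower (24.7%), against 22.4% of all 7503 genes tested in both. Among these were Atp5a1 and Atp5b, the alpha and beta subunits of the F1 part of complex V. Ndufa6, an accessory subunit of complex I at 584, 373, 901, 690, 356 and 379 CPM (thymus fl, thymus cKO, spleen fl, spleen cKO, tumor fl, tumor cKO), was the member higher in spleen under both labels (0.62 and 0.89). By these CPM it was therefore highest in the spleen libraries, where most subunits were lowest. Under median-of-ratios scaling, Ndufa6 was no longer lower in tumor than in spleen for cKO.

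By complex, spleen over thymus ran from −1.38 for complex II to −0.73 for complex I for fl. For cKO the highest was complex I (0.00, 7437 against 7427 CPM, with either sign under other scalings) and the lowest complex V (−0.49). Sdhd had the lowest ratio of the subunits for fl, at 147 in thymus and 37.0 in spleen (−1.99), and Atp5mpl for cKO, at 674 and 290 (−1.22). The mitochondrial share was nearly level for fl (−0.05), a sign that turned under median-of-ratios scaling (0.37) and with ribosomal protein and Malat1 UMIs left out (0.14). For cKO it was −0.17, which was −0.0154 in cells with a CD8 UMI and turned to 0.0255 without the clusters of low ribosomal share, and mt-Nd3 was lowest at 2417 in thymus and 437 in spleen (−2.47).

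The tumor libraries differed from the spleen libraries in opposite directions for the products of the separate genomes. Nuclear subunits were higher in tumor under both labels, with log2 ratios of 0.69 (0.67 to 0.70) for fl and 0.97 (0.96 to 0.98) for cKO, beside medians over all genes of −0.41 and −0.90. Mitochondrial mRNAs were lower in tumor, with log2 ratios of −0.95 (−0.96 to −0.93) and −1.32 (−1.33 to −1.31). The sizes depended on scaling and cells: under median-of-ratios scaling the nuclear ratios were 1.10 and 1.87 and the mitochondrial ones −0.56 and −0.46, and with other lineages included the nuclear ratios were 1.19 and 1.22 and the mitochondrial ones −0.34 and −1.08. The cycling markers moved with the nuclear subunits, at 1117 and 1361 CPM in the tumor libraries (fl and cKO; most abundant Pclaf at 275 and Stmn1 at 402, none at 0) against 118 and 127 in spleen. The 7 melanoma markers (Pmel, Mlana, Tyrp1, Dct, Tyr, Mitf and Gpnmb) summed to 286 and 198 CPM in the tumor cells used, with Dct (92.8) and Pmel (53.6) the most abundant and none at 0. In spleen they summed to 11.3 and 8.45, led by Mitf in both libraries, with Pmel, Tyrp1 and Dct at 0 in the library labelled fl and Tyrp1 in cKO. The melanoma-like cluster left out had 67363 nuclear subunit CPM, and what melanoma RNA adds to the cells used was not tested. For fl, 45 of 84 nuclear members were over 1.5-fold higher, against 25.2% of 4822 genes, and 6 were lower, against 46.4%. For cKO, 56 of 86 were higher, against 16.7% of 8332 genes, and 5 were lower, against 57.4%. The members thus lay on the other side of 0 from the middle of all genes under either label. Under median-of-ratios scaling the split of all genes became 1728 higher and 1854 lower for fl and 2990 and 3054 for cKO, and that of the members 69 and 2 for fl and 80 and 1 for cKO. Higher in tumor under both labels were 40 of 84 members (47.6%), against 18.3% of 4809 genes, and lower under both were 4 (4.76%), against 43.3%.

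The 4 members lower in tumor under both labels were Ndufa6, the assembly factor Ndufaf4, Ndufs1, the largest core subunit of complex I, and Sdha, the catalytic subunit of complex II. Under median-of-ratios scaling, Ndufaf4 alone of these was over 1.5-fold lower under both labels. Sdha stood at 73.0 and 96.7 CPM in the spleen libraries and at 45.2 and 42.0 in the tumor libraries (log2 −0.69 for fl and −1.20 for cKO). Its partner Sdhd stood at 37.0 and 45.7 in spleen and at 147 and 151 in tumor (1.99 and 1.72). Sdhb, the other subunit of the head, stood at 215 and 186 in spleen and at 301 and 365 in tumor (0.49 and 0.97). Within complex II Sdha was thus lower in tumor than in spleen, while Sdhb and Sdhd were higher there. The medians of all genes were −0.41 and −0.90, and under median-of-ratios scaling Sdha was not past 1.5-fold for either label. Complexes IV and V were the highest in tumor over spleen, at 0.93 and 0.88 for fl and 1.23 and 1.10 for cKO, against 0.37 and 0.71 for complex I. By summed CPM, complex IV also had the lowest mitochondrial ratios, at −1.29 and −1.44. For cKO its interval (−1.45 to −1.42) overlapped that of complex III (−1.44 to −1.37). The complex IV sum holds mt-Co1, described next, which was far lower in tumor than mt-Co2 and mt-Co3. For cKO, mt-Co2 and mt-Co3 were less low than complexes I (−1.22) and III (−1.41).

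Within complex IV, 1 mitochondrial gene stood apart between tissues. mt-Co1, the catalytic subunit that carries the copper and haem centre where oxygen is reduced, had 4386 and 4226 CPM in the thymus libraries, 5069 and 5918 in the spleen libraries, and 398 and 469 in the tumor libraries. The tumor libraries were lower than all 4 others, with log2 ratios to spleen of −3.67 (fl) and −3.66 (cKO), while mt-Co2 (−0.91 and −1.08) and mt-Co3 (−0.97 and −1.10) were close to the values for all mitochondrial mRNAs together. mt-Co1 made up 13.4% and 13.5% of mitochondrial mRNA UMIs in the spleen libraries, 11.2% and 8.59% in the thymus libraries and 2.03% and 2.68% in the tumor libraries. It was low in each of the 7 tumor clusters, melanoma-like and macrophage-like clusters included, at 280 to 1179 CPM, against 2658 to 9407 over the thymus clusters and 3837 to 9028 over the spleen clusters. As a share of mitochondrial mRNA UMIs, mt-Co1 made up 1.73% to 2.62% in the tumor T cell clusters and 2.26% in the melanoma-like cluster 2, but 8.08% in the macrophage-like cluster 5. The thymus clusters had 6.62% to 11.7% and the spleen clusters 12.7% to 14.2%, so by share cluster 5 lay within the range of the thymus. The cause was not tested. Malat1, a nuclear-retained RNA, was also low in the tumor libraries, at 39.1 and 41.8 CPM, against 1079 to 3194 in the other libraries.

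**Figure D3:**
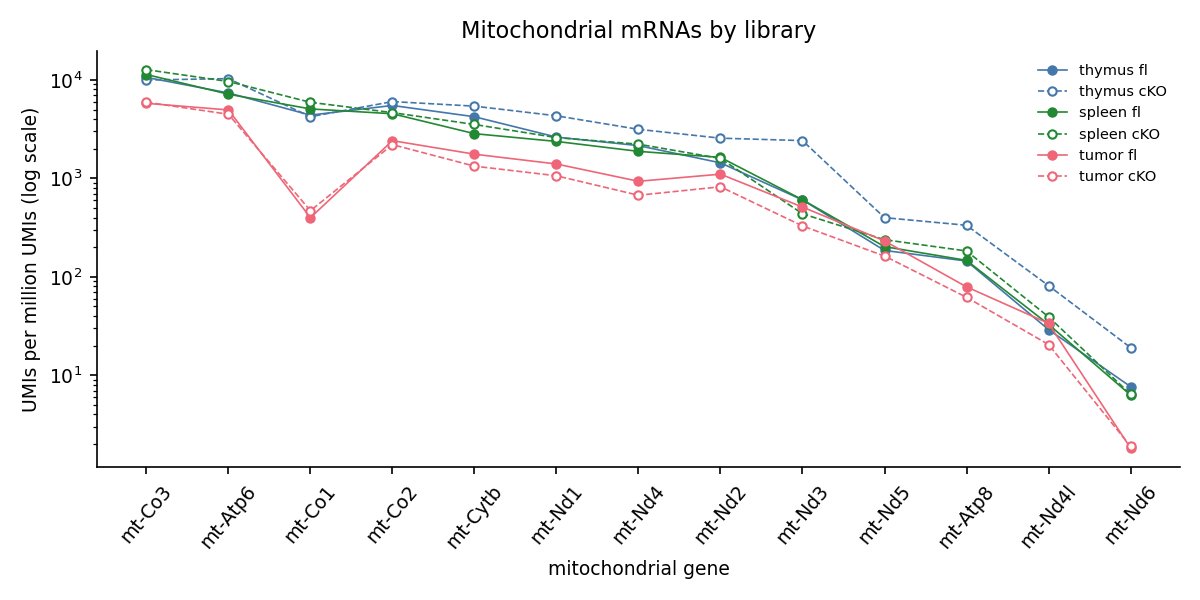
Points give the CPM of all UMIs (log scale) of each of the 13 mitochondrial mRNAs in the 6 libraries. mt-Co1 is at 398 and 469 in the tumor libraries and at 4226 to 5918 in the others, and mt-Nd3 is highest in the thymus library labelled cKO at 2417.

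The members with the most UMIs in each complex give the best-measured levels. Ndufb1 of complex I stood at 685 and 522 CPM in the thymus libraries, 409 and 322 in spleen, and 724 and 818 in tumor. Sdhb of complex II stood at 523 and 253, 215 and 186, and 301 and 365. Uqcrh of complex III stood at 716 and 654, 778 and 641, and 991 and 979. These genes were all highest in the thymus library labelled fl or in the tumor. Cox7c of complex IV had 1393 and 918, 655 and 508, and 1438 and 1399. Atp5e, the epsilon subunit of complex V, had 894 and 724, 627 and 537, and 1840 and 2199. Atp5e was thus far higher in tumor than elsewhere, at a log2 ratio over spleen of 1.55 and 2.03.

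Complex IV has subunits with alternative isoforms, and here 1 of each group carried nearly all UMIs. Cox4i1, the common form of subunit 4, stood at 900, 729, 648, 646, 1658 and 1954 CPM (thymus fl, thymus cKO, spleen fl, spleen cKO, tumor fl, tumor cKO), whereas Cox4i2, the lung and hypoxia-linked form, had 22 UMIs in the 6 libraries together. The heart and muscle form Cox6a2 had 44 UMIs, against 37310 for Cox6a1. The testis form Cox6b2 had 21.8 and 23.5 CPM in the thymus libraries and 2.90 to 6.13 in the others, while the common form Cox6b1 had 661 and 464 in thymus, 267 and 291 in spleen and 994 and 1149 in tumor. Cox6b2 was therefore mainly a thymus gene here, at a low level. The muscle form Cox7a1 had 217 UMIs, with 11.6 and 5.55 CPM in thymus, against 24617 for Cox7a2. Cox8b, Cox8c and Ndufa4l2 had 0 UMIs, while Cox8a had 30818 and Ndufa4 26957. Cox7b2, with 16 UMIs, and Ndufb11b, with 2, were nearly absent.

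Cox7a2l, which encodes a factor of respiratory supercomplexes, kept apart from the subunits. It stood at 338 and 443 CPM in the thymus libraries (log2 0.39, 0.32 to 0.46), 423 and 450 in the spleen libraries (0.09) and 335 and 268 in the tumor libraries (−0.33, −0.44 to −0.21). It was thus the highest of all nuclear members tested in the thymus. Unlike most subunits, it was lower in tumor than in spleen (−0.34 and −0.75), beside medians of all genes of −0.41 and −0.90. This sign turned under median-of-ratios scaling for both labels. The pseudogene Cox5b-ps stood at 25.4 and 14.6, 9.36 and 9.19, and 102 and 131 CPM in thymus, spleen and tumor (log2 tumor over spleen 3.45 and 3.83). Its sequence is nearly that of Cox5b (623, 376, 302, 310, 458 and 559 CPM in the same order), so whether these UMIs came from the pseudogene is uncertain.

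The 8 assembly factors of complex I did not share 1 direction across tissues. In the thymus, all 8 were tested and 3 were over 1.5-fold lower in the library labelled cKO (37.5%, against 15.3% of all genes), from Ndufaf3 (37.6 and 19.2 CPM, log2 −0.97) to Ndufaf5 (22.8 and 21.2, −0.11). In spleen, 6 were tested and 2 were higher (33.3%, against 18.1% of all genes), Ndufaf7 and Ndufaf5 (10.3 and 16.4, 0.67, 0.01 to 1.39), with Ndufaf8 lowest (124 and 109, −0.19). In tumor, 6 were tested and none passed 1.5-fold, with Ndufaf3 highest (31.4 and 34.2, 0.13). Ndufaf4 stood out by tissue, at 85.8 and 65.9 in thymus, 56.6 and 66.3 in spleen and 25.0 and 19.0 in tumor. It was lower in tumor than spleen by −1.18 (fl) and −1.81 (cKO). The member count is complete as follows: of the 110 members, 103 had at least 100 UMIs over the 6 libraries, and the 7 others were the 7 paralogs Ndufb11b, Cox4i2, Cox6a2, Cox7b2, Cox8b, Cox8c and Ndufa4l2.

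Cell clusters were formed in each tissue without the member genes, so the members' levels did not shape them through their own counts. In the thymus, the cycling-like clusters 1, 3 and 8 stood at 49830, 37844 and 34824 nuclear subunit CPM, and the small unnamed cluster 11 at 45052. The naive CD8-like clusters 0 and 10 (18785 and 19579), the effector-like cluster 7 (18304) and the unnamed cluster 9, led by connective-tissue genes such as Dcn and Mgp (19779), were the lowest outside the low-ribosomal clusters. The CD25-type immature-like cluster 2 (25355) and the memory-like cluster 6 (23292) lay between. The cycling-like clusters 1, 3 and 8 were therefore high and the naive CD8-like ones low, whereas the cycling-like cluster 5, of low ribosomal content, was at 24113. Several clusters came nearly from 1 library (cluster 1 with 511 and 6 cells, cluster 3 with 5 and 356, cluster 7 with 1 and 199), and for these a cell state and a library cannot be told apart.

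Spleen clusters were more alike. With cluster 4 and cluster 11 set aside, and the immunoglobulin-led cluster 13 left out, the other 11 clusters ran from 21295 (cluster 0) to 23489 (cluster 1). The effector-like cluster 3, led by Lag3, Gzma and Gzmk, stood at 21372 with 4.24% mitochondrial UMIs, near the low end of this range in nuclear subunits. Cluster 4, with 14.1% ribosomal protein UMIs, had 13018 and 6.76%. It resembles thymus cluster 4 in a low nuclear and a high mitochondrial value, and thymus cluster 5 in the mitochondrial value alone. Cluster 11, unnamed, led by Prtn3, Mpo and Elane and with 7 of the 8 cycling markers raised, was the highest at 32700. In the tumor, the T cell clusters ran from 32266 in the naive CD8-like cluster 3 to 41433 in the effector-like cluster 0, with the regulatory or CD4-like cluster 6 at 38456. Tumor cluster 0 also had the cycling markers Birc5, Stmn1, Pclaf and Ube2c raised. The effector-like tumor cluster 4, not marked as cycling, stood at 41226. The lowest tumor value was above all spleen clusters but cluster 11 at this resolution, and not at resolution 1.0, where the lowest tumor cluster was at 19279. Mitochondrial shares of the tumor T cell clusters were within 1.62% to 1.94%.

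**Figure D4:**
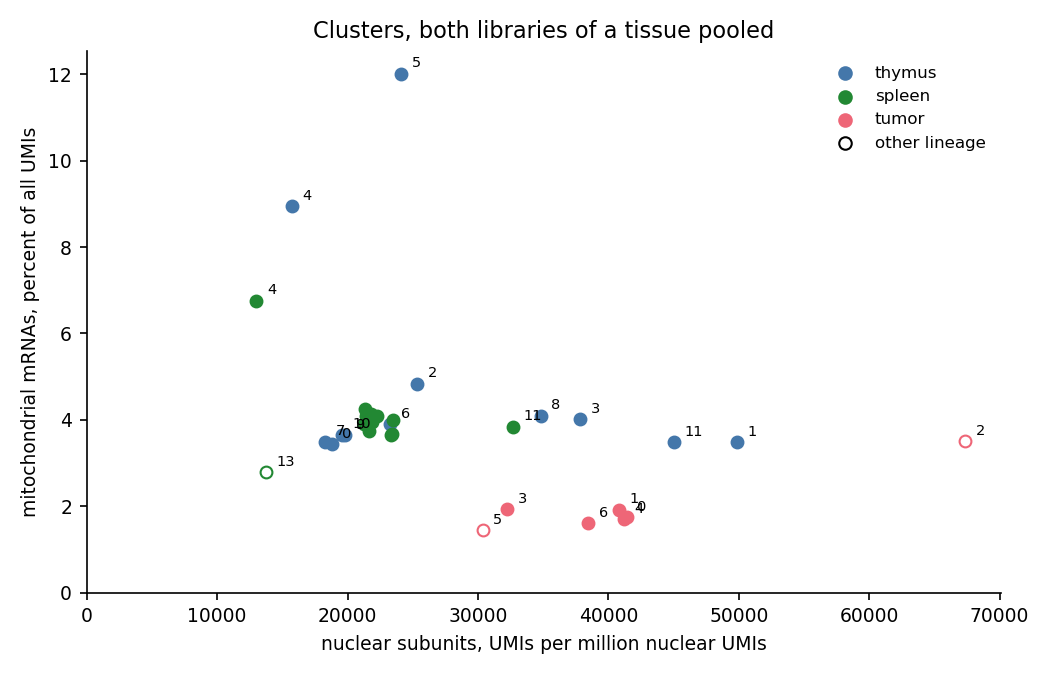
Each point is 1 cluster with both libraries of a tissue pooled: nuclear subunits (CPM of nuclear UMIs) on the horizontal axis and mitochondrial mRNAs (percent of all UMIs) on the vertical axis. Thymus clusters 4 and 5 and spleen cluster 4 stand above 6% mitochondrial UMIs, and the tumor T cell clusters lie at 1.62% to 1.94%.

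Other genes of the pathway were taken from a list of 79 carriers, assembly factors and regulators of mitochondrial transcription. In the thymus 17 of 77 tested were over 1.5-fold lower in the library labelled cKO (22.1%, against 15.3% of all genes) and 2 higher (2.60%, against 11%), with a median of −0.25. The lowest was Uqcc2, an assembly factor of complex III (2377 UMIs labelled fl and 2455 labelled cKO, log2 −1.52), and the highest Atpaf1, an assembly factor of complex V (108 and 962 UMIs, 1.59). Cytochrome c itself, Cycs, had a ratio of −1.35. In spleen 10 of 65 were higher (15.4%, against 18.1% of all genes) and 1 lower (1.54%, against 3.17%), with a median of 0.05, from Lyrm7 (−1.82) to Bcs1l (1.04), both of which act in complex III assembly. In tumor 2 of 48 were higher (4.17%, against 10.7%) and 1 lower (2.08%, against 5.33%), with a median of 0.07, from Sdhaf1 (−0.65) to Tmem70 (0.67). The list thus shared the thymus direction of the members at a smaller size, and in spleen and tumor its shares were below those of all genes.

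Between tumor and spleen the same list went both ways. For fl, 13 of 45 were higher (28.9%, against 25.2% of all genes) and 9 lower (20%, against 46.4%). For cKO, 15 of 69 were higher (21.7%, against 16.7%) and 23 lower (33.3%, against 57.4%). Chchd10, a protein of the intermembrane space, was highest under both labels, with 22 and 86 UMIs in spleen and 659 and 1010 in tumor (log2 4.09 and 4.27). Tfam, which packages mitochondrial DNA and takes part in its transcription, was lower in tumor (−1.28 under either label). So was the mitochondrial transcription factor Tfb2m (−2.41 and −2.13). The transcriptional activator Nrf1, a regulator of nuclear subunit genes, was at −1.18 and −1.16. Beside the medians of all genes (−0.41 and −0.90), Tfb2m was the furthest of these. Between spleen and thymus, 26 of 61 were lower for fl (42.6%, against 43.6% of all genes) and 5 higher (8.20%, against 14.7%), from Nubpl (−2.91) to Lyrm7 (1.35). For cKO, 15 of 77 were lower (19.5%, against 27.2%) and 8 higher (10.4%, against 19.1%), from Atpaf1 (−2.95) to Tmem126a (1.04). Ppargc1a, a coactivator of mitochondrial biogenesis, had too few UMIs to compare in any pair of libraries, and its relative Ppargc1b had the lowest ratio for cKO in tumor over spleen (135 UMIs in spleen and 4 in tumor, −4.36, −6.26 to −2.97).

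Positions of the members are given on GRCm39 from GENCODE vM39, in which all 110 gene identifiers were found, 16 of them under a newer symbol (such as Atp5f1b for Atp5b). The 13 mitochondrial genes lie on chrM, with mt-Co1 (ENSMUSG00000064351) at chrM:5328-6872 and mt-Nd3 (ENSMUSG00000064360) at chrM:9459-9806, both on the plus strand. mt-Nd6, at chrM:13552-14070, is on the minus strand. Among nuclear members, Uqcr11 (ENSMUSG00000020163) lies at chr10:80236542-80242676 on the minus strand, Ndufc1 (ENSMUSG00000037152) at chr3:51309273-51316412 on the minus strand, and Ndufb11 (ENSMUSG00000031059) at chrX:20481563-20484457 on the minus strand. Sdha (ENSMUSG00000021577) lies at chr13:74469359-74498436 on the minus strand and Sdhd (ENSMUSG00000000171) at chr9:50507642-50515195 on the minus strand. The genes of 1 complex were thus scattered over chromosomes.

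The promoters of the nuclear subunits were also examined for motifs. The motif counts were not set against any ratio, and the background of all promoters was not matched for expression. They therefore do not bear on the directions that the subunits shared. RefSeq (GRCm38.p6) gave promoters of 300 bases, 250 before and 50 after the start, for 65 of the 78 subunits (70 promoters), and the rest were not used here. On either strand, the NRF1 core GCGCATGCG was present in 11.4% of the subunit promoters and 1.75% of all 32851 promoters, the ETS core CCGGAAG in 24.3% and 8.86%, and the YY1 core AAGATGGCG in 10% and 1.40%. At least 1 of the 3 was present in 38.6% of the subunit promoters and 11.4% of all promoters. Each of the motifs was thus more frequent among subunit promoters, though most subunit promoters held none of the 3. A match is a run of letters and does not show that a factor binds there. The sequences below were chosen after the values were seen, as the subunit of each complex with the most UMIs whose promoter holds the NRF1 core, or any of the 3 motifs where no promoter of the complex does. They are shown 5′ to 3′ on the strand of the gene, with motif matches on either strand in capitals. They are Ndufa11 (chr17:56717512-56717811, plus strand), Sdhb (chr4:140961021-140961320, plus), Uqcr11 (chr10:80406772-80407071, minus), Cox6a1 (chr5:115348909-115349208, minus) and Atp5l (chr9:44920693-44920992, minus). In Ndufa11 and Cox6a1 the run GCGCATGCGC holds the NRF1 core on both strands, overlapping.
Ndufa11: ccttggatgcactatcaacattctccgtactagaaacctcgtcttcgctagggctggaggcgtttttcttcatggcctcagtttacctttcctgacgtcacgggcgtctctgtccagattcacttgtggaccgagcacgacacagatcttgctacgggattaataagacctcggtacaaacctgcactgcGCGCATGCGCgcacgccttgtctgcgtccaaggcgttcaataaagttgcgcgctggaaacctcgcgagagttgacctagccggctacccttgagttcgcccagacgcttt
Sdhb: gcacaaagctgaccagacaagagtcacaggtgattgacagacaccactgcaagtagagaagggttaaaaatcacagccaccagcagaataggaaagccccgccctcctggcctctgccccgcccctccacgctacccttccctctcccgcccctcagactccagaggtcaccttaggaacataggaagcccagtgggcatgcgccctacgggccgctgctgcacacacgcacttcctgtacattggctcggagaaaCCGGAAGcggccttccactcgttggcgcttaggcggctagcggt
Uqcr11: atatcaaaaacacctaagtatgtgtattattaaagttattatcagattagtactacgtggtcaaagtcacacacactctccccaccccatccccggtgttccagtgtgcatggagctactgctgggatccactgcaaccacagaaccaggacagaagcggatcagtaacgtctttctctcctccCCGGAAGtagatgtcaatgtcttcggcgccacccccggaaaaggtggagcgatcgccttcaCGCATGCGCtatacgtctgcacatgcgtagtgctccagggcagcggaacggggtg
Cox6a1: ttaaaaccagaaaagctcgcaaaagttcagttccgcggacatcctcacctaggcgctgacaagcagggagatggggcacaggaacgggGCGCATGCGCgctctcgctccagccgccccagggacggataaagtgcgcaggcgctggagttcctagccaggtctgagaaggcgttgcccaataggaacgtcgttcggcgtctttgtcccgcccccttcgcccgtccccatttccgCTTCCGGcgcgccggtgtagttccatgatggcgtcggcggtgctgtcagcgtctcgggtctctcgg
Atp5l: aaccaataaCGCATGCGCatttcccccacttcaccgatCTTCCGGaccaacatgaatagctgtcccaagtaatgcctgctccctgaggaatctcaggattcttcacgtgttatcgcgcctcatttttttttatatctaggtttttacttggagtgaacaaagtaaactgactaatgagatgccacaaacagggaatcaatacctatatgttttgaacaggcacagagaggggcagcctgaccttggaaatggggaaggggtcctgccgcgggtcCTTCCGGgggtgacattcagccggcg
Sdhb holds the ETS core and not the NRF1 core, Ndufa11 the NRF1 core alone, and the other 3 hold both.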

How the data were processed

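The values are UMI counts: the authors deposited count tables for 6 PIPseq libraries of CD8+ T cells, each in the unit count, made with the PIPseq analysis pipeline 3.2 on GRCm39, per the submitters' processing notes, which also name Seurat 4.3.0. The annotation release is not given in the sources used here. Barcodes with at least 500 genes and 1000 UMIs and at most 20% mitochondrial UMIs were kept; 5267 barcodes of the spleen library labelled fl had fewer than 1000 UMIs. Doublets were not called or removed and ambient RNA was not tested. Clusters were made per tissue without the member genes (R 4.3.3, Seurat 5.3.0, sctransform 0.4.2, 20 principal components, Louvain resolution 0.6) and named from marker lists. Tumor clusters 2 and 5, named as another lineage, and spleen cluster 13, unnamed and led by immunoglobulin genes, were left out. Unnamed clusters led by genes of other lineages stayed in the library ratios. These were spleen cluster 11, led by Prtn3, Mpo and Elane (10 cells labelled fl and 66 labelled cKO), and thymus cluster 9, led by connective-tissue genes (17 and 99). The 6 granulocyte progenitor markers summed to 2.25 and 77.8 CPM in the spleen cells used. What these clusters add to the ratios was not tested.

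UMIs were summed per library with Python 3.11.15, numpy 2.4.6, scipy 1.17.1 and pandas 2.3.3. Log2 ratios carry exact conditional binomial intervals, levels exact Poisson intervals and shares Clopper-Pearson intervals. Only those of the log2 ratios were tested, on counts simulated with Poisson error. As these intervals assume that error, the simulation says nothing of spread between libraries. Genes with at least 100 UMIs over a pair of libraries were compared, and past 1.5-fold counts as higher or lower. The members and lists were chosen with earlier results of these data known. Genes named with values were the mitochondrial mRNAs, the Sdh genes, the highest and lowest nuclear member per complex and comparison of labels, the member with the most UMIs per complex, isoform groups, and the highest and lowest of the other lists. Ndufa6, Ndufs1, Atp5a1, Atp5b, Atp5mpl, Cycs, Tfam, Tfb2m, Nrf1 and Ppargc1a were added after their values were seen. Alternatives changed the total, the cells, the low-count filter and the cluster resolution. Figures used matplotlib 3.10.9.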

Additional observations from a re-analysis of the deposited data

Results flagged for a closer look

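The log2 ratios of the library labelled cKO over the one labelled fl had different signs in different tissues. For nuclear subunits they were −0.72 in thymus, −0.13 in spleen and 0.15 in tumor. For mitochondrial mRNAs they were 0.33 in thymus, 0.21 in spleen and −0.16 in tumor. Whether the tissues differ from one another in these ratios was not tested, because there was 1 library per tissue and label.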

How the results depend on the processing

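Every group had 1 sample, each with replicate number 1, so no replicate numbers pair the samples. A test of the label with the libraries paired by tissue (3 pairs) was not run. In this section T, S and M stand for the label comparisons (cKO over fl) in thymus, spleen and tumor, ST for spleen over thymus and MS for tumor over spleen. The main log2 ratios were, for nuclear subunits, T −0.72, S −0.13, M 0.15, ST fl −0.88, ST cKO −0.29, MS fl 0.69 and MS cKO 0.97, and for mitochondrial mRNAs T 0.33, S 0.21, M −0.16, ST fl −0.05, ST cKO −0.17, MS fl −0.95 and MS cKO −1.32. The values below are those that differ from the main value by more than its counting error, as the 95% interval gives it, and the others are counted as within it.

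The sign turned in 7 cases. Nuclear M was −0.11 with other lineages included and −0.0594 in filtered cells with a Cd8a or Cd8b1 UMI. Mitochondrial ST fl was 0.37 under median of ratios, 0.14 with a total without mitochondrial, ribosomal protein and Malat1 UMIs, and 0.0255 without the clusters of low ribosomal share. Mitochondrial ST cKO was 0.0255 without those clusters. Mitochondrial T was −0.12 in cells with a CD8 UMI and no Dntt UMI. The cause was not tested.

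With all UMIs as total for nuclear genes and nuclear UMIs for mitochondrial mRNAs, nuclear ratios were T −0.73, ST cKO −0.28, MS fl 0.72 and MS cKO 1.01, and mitochondrial ratios T 0.34, ST cKO −0.18, MS fl −0.98 and MS cKO −1.36, with 6 others within it. With the total lacking mitochondrial, ribosomal protein and Malat1 UMIs, nuclear ratios were T −0.58, S −0.27, M 0.0399, ST fl −0.68, ST cKO −0.37, MS fl 0.79 and MS cKO 1.09, and mitochondrial ratios T 0.48, S 0.0820, M −0.27, ST cKO −0.26, MS fl −0.88 and MS cKO −1.23. Under median of ratios, nuclear ratios were T −0.66, S −0.32, M 0.0680, ST fl −0.45, ST cKO −0.17, MS fl 1.10 and MS cKO 1.87, and mitochondrial ratios T 0.40, S 0.0318, M −0.25, ST cKO −0.0604, MS fl −0.56 and MS cKO −0.46.

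With no limit on the mitochondrial share, mitochondrial ratios were T 0.37, M −0.24, ST cKO −0.20 and MS fl −0.87, with 10 others within it. With every barcode, they were T 0.37, M −0.24, ST fl −0.0408, ST cKO −0.20, MS fl −0.88 and MS cKO −1.33, and nuclear MS fl was 0.70, with 7 within it. With other lineages included, nuclear ratios were MS fl 1.19 and MS cKO 1.22, and mitochondrial ratios M −0.53, MS fl −0.34 and MS cKO −1.08, with 8 within it. In filtered cells with a Cd8a or Cd8b1 UMI, nuclear ratios were T −0.69, S −0.15, ST fl −0.76, ST cKO −0.23, MS fl 1.07 and MS cKO 1.17, and mitochondrial ratios T 0.17, S 0.19, M −0.53, ST fl −0.0348, ST cKO −0.0154, MS fl −0.41 and MS cKO −1.13. With the mean of the share in each cell, nuclear ratios were T −0.85, S −0.11, M 0.21, ST fl −0.82, ST cKO −0.0885 and MS fl 0.64, and mitochondrial ratios T 0.34, S 0.24, ST fl −0.21, ST cKO −0.31 and MS cKO −1.35, with 3 within it.

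Further alternatives were chosen after seeing the data. Without the clusters of low ribosomal share, nuclear ratios were S −0.0874, ST fl −0.91, ST cKO −0.27, MS fl 0.66 and MS cKO 0.90, and mitochondrial ratios T 0.14, S 0.14, MS fl −0.90 and MS cKO −1.20, with 3 within it. In thymus cells with a CD8 UMI and no Dntt UMI nuclear T was −0.67, and in those with Dntt and no CD8 UMI nuclear T was −0.69 and mitochondrial T 0.56.

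The medians of all genes lay off 0 by 0.19 in S, −0.43 in ST fl, −0.12 in ST cKO, −0.41 in MS fl and −0.90 in MS cKO, which median of ratios removes. Below, a count is taken as changed where it differs by over 1.5 times, a median of members by 0.1 log2 or more and a cluster level by 10% or more, and smaller differences are not counted as changes. By these limits median of ratios changed 13 of the counts and medians of members and left 8. The members past 1.5-fold went from 7 higher and 1 lower to 2 and 4 in S, from 1 and 74 to 2 and 49 in ST fl, from 4 and 23 to 4 and 14 in ST cKO, from 45 and 6 to 69 and 2 in MS fl, and from 56 and 5 to 80 and 1 in MS cKO (the 80 is within 1.5 times of 56). With members of at least 1 UMI, 6 changed by over 1.5 times, and 15 counts and medians stayed within the limits: higher in T 0 to 1, in M 0 to 1 and in ST fl 1 to 2, and lower in S 1 to 5, in MS fl 6 to 10 and in MS cKO 5 to 8. With at least 20 UMIs, 2 changed by over 1.5 times and 19 stayed within the limits: lower in S 1 to 2 and higher in M 0 to 1. Of the highest and lowest cluster levels, 3 changed by these limits and 9 did not at resolution 0.3, and 2 did and 10 did not at resolution 1.0, among them the lowest tumor level, 32266 in the main setting, 36780 at 0.3 and 19279 at 1.0.

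Each library stands for 1 mouse or 1 pool, so label, mouse, handling and depth cannot be told apart. Pdcd1 RNA goes against the labels in thymus and spleen. The thymus libraries differ in cycling and immature cells, and the spleen libraries in stress genes. RNA counts of respiratory genes are not protein, respiration or mitochondrial mass, none of which was measured here.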

Other observations

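The clusters left out of the comparisons also differed in these genes. The melanoma-like tumor cluster 2 (142 cells labelled fl and 58 labelled cKO) had 67363 nuclear subunit CPM and 3.52% mitochondrial UMIs, above every T cell-like tumor cluster in both. The macrophage-like or monocyte-like tumor cluster 5 (27 and 34 cells) had 30358 and 1.46%, below them in both. Spleen cluster 13, led by immunoglobulin genes (16 cells, all labelled cKO), had 13739 and 2.80%.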
